A study of Mus musculus with 6 samples.

Results

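The 6 actin genes of the mouse were described in myocardium after injection of PBS or of STZ (streptozotocin, which kills pancreatic beta cells and so lowers insulin). They are Acta1 (skeletal muscle alpha-actin), Actc1 (cardiac alpha-actin), Acta2 and Actg2 (the smooth muscle alpha- and gamma-actins), and Actb and Actg1 (the cytoplasmic beta- and gamma-actins). They were taken by symbol, and all 6 were found among the 55401 genes of the deposited tables. All animals were wild-type males with a time label of 8 weeks. The controls were injected with PBS and the diabetic group with STZ, and the sources used here do not give strain, age, STZ dose or the event from which the time runs. There were 3 libraries of poly(A) RNA per group. No label says whether each is a separate animal, so each p-value reflects library-to-library spread that may be technical.

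Values are FPKM (fragments mapped to a gene, divided by its transcript length and by the size of the library), so levels of different genes can be set side by side. FPKM summed to between 531384 and 589719 in the complete files. The steps between low values of genes with a single exon correspond to roughly 18300000 to 22700000 fragments per library, an estimate and not a count. The file of PBS replicate 3 stops after 7711 genes and lists Actb alone among the actins. Comparisons therefore rest on PBS replicates 1 and 2 and STZ replicates 1, 2 and 3. The cardiomyocyte markers, among them Myh6 and Tnnt2, summed to between 11221 and 12290 FPKM in the PBS libraries. In the STZ libraries they summed to between 10167 and 12602 FPKM. Of these markers 0 of 11 passed the test described below, where 5.82% of all tested genes were called. The sums hide unlike changes, 8 negative and 3 positive. For 6 of the 11 the groups did not overlap, as for 47.4% of all tested genes. Myh6 had 2925 and 3083 FPKM in PBS replicates 1 and 2, against 2244, 2219 and 2546 FPKM across STZ replicates 1 to 3. Tnnt2 was higher in every STZ library.

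Actin monomers polymerise into the thin filament that myosin pulls on in muscle, and into the cortex and stress fibres of other cells. The adult mouse heart makes its thin filaments mainly from Actc1, while Acta1 is abundant in the developing heart and is a member of the fetal gene programme that returns in the overloaded heart. Acta2 marks vascular smooth muscle and activated fibroblasts, and Actb and Actg1 are made by nearly every cell. Serum response factor (SRF) binds CArG boxes near the start of many muscle actin genes.

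The actins differ little in their coding sequence, which bears on how short fragments are assigned to them. The coding sequences of Acta1, Actc1 and Acta2 have 377 codons before the stop, that of Actg2 has 376, and those of Actb and Actg1 have 375. The start of each is shown because the isoforms differ there. The first 60 coding bases, in GENCODE M21 transcripts (GRCm38), are given with capitals where a base differs from Acta1 in a pairwise alignment, gaps not shown.
Acta1: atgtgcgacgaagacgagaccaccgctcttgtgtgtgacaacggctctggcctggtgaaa
Actc1: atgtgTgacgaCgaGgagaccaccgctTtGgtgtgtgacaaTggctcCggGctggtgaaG
Acta2: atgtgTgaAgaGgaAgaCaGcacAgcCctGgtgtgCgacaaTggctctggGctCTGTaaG
Actg2: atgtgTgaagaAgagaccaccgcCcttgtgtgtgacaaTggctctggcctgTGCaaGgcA
Actb: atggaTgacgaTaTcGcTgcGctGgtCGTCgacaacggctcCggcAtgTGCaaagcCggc
Actg1: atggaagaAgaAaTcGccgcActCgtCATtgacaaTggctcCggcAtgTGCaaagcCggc
Over the whole coding sequence, Acta1 was 86.2% identical to Actc1 and 85.4% to Acta2. Actb and Actg1 were the most similar pair of the 15, at 88.7%. Identical runs were short. The longest between Acta1 and Actc1 had 29 bases, and the longest of any pair, between Acta1 and Actb, had 77.

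Stretches of 50 bases were therefore looked up in every annotated transcript of other genes. Actc1 and Actg2 shared 0% of theirs, Acta2 0.353% and Acta1 2.22%. Actb shared 14.2%, mostly with Lrrc58 (9.57%) and the pseudogene Gm15725. Actg1 shared 56.7%, mostly with processed pseudogenes such as Gm12715 (51.1%) and Gm8399 (35.6%). The 12 pseudogenes that share stretches with Actg1 together had 6.79 and 4.69 FPKM in PBS replicates 1 and 2, against 2.88, 6.51 and 10.9 FPKM across STZ replicates 1 to 3. That is between 5.77% and 14.4% of the FPKM of Actg1 itself. The sources used here do not give the read length or the treatment of reads that match several places, so the level of Actg1 is uncertain, and that of Actb less so.

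Acta1, Actc1 and Acta2 were lower in the STZ libraries, and the cytoplasmic actins were not called. Actc1 carried most of the actin FPKM in both groups. Genes that reached 1 FPKM in 2 or more fitted libraries were compared with limma on log2(FPKM + 1), with Benjamini-Hochberg adjustment over the 11556 genes tested and a threshold of 0.05. Actg2 did not reach that level and was not tested. Of the 5 actins tested, Acta1, Actc1 and Acta2 fell and 0 rose, where 5.82% of all tested genes were called, 2.17% falling and 3.64% rising. Of all calls 62.7% were rises, a share that was 48.5% after median centring and 73.8% in TPM, while the 3 actins fell under both scalings. The median log2 fold change of the 5 was -0.70, against 0.06 over all genes tested. The PBS and STZ values of these 3 genes did not overlap, as for 47.4% of all tested genes in either direction and 18.8% in the lower direction.

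Actc1 (ENSMUSG00000068614, chromosome 2, 114047282 to 114053548, minus strand, GRCm38) is the main actin of the heart muscle thin filament. It had 4890 and 4832 FPKM in PBS replicates 1 and 2, against 3338, 2747 and 2926 FPKM across STZ replicates 1 to 3. The PBS libraries were close together and every STZ library lay below both. The means were 4861 ± 40.6 FPKM (SD, n = 2) and 3004 ± 303 FPKM (SD, n = 3), a ratio of 1.62 of PBS to STZ. The log2 fold change was -0.70 ± 0.12 (SE, limma adjusted p = 0.0282). Its place among all genes ordered by mean FPKM hardly moved, from the 22nd to the 24th. After quantile normalization, which forces the libraries to one distribution and acts strongly on the highest genes, its change was -0.22 (limma adjusted p = 0.211).

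Acta1 (ENSMUSG00000031972, chromosome 8, 123891769 to 123894751, minus strand) is the actin of skeletal muscle thin filaments. It had 345.8 and 184.5 FPKM in PBS replicates 1 and 2, against 68.1, 33.8 and 49.9 FPKM across STZ replicates 1 to 3. The PBS libraries differed from each other by 1.87 times, and the lower of them was still 2.71 times the highest STZ library. The means were 265 ± 114 FPKM (SD, n = 2) and 50.6 ± 17.2 FPKM (SD, n = 3), a ratio of 5.24. The log2 fold change was -2.35 ± 0.36 (SE, limma adjusted p = 0.0251), the 12th largest fall among the genes called. Among all genes ordered by mean level it went from the 141st to the 641st place.

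Acta2 (ENSMUSG00000035783, chromosome 19, 34241090 to 34255590, minus strand) had 59.7 and 42.8 FPKM in PBS replicates 1 and 2, against 20.8, 21.9 and 23.6 FPKM across STZ replicates 1 to 3. The STZ libraries lay within 1.13 times of each other, and the lower PBS library was 1.81 times the highest of them. The means were 51.3 ± 12.0 FPKM (SD, n = 2) and 22.1 ± 1.41 FPKM (SD, n = 3), and the log2 fold change was -1.16 ± 0.17 (SE, limma adjusted p = 0.0221). In bulk tissue, fewer cells of a type and less RNA per cell cannot be told apart.

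These calls rest on few libraries. Without PBS replicate 1 the log2 fold changes of Acta1, Actc1 and Acta2 were -1.90, -0.69 and -0.92, and without PBS replicate 2 they were -2.80, -0.71 and -1.40. In both cases 0 of the 5 actins passed, with limma adjusted p-values between 0.0675 and 0.237 for these 3 genes. Without STZ replicate 1 Acta1 and Actc1 passed, without STZ replicate 2 Acta1 alone, and without STZ replicate 3 Acta2 alone. With no filter on low values, where 26229 genes were tested, 0 of the 5 passed, and the unfiltered adjusted p-values were 0.0944 for Acta1, 0.177 for Actc1 and 0.077 for Acta2 (limma).

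Actg2 (ENSMUSG00000059430, chromosome 6, 83512905 to 83536265, minus strand), the actin of visceral smooth muscle, was near the limit of detection. It had 0.56 and 0.1 FPKM in PBS replicates 1 and 2, against 0.15, 0.2 and 0.39 FPKM across STZ replicates 1 to 3. By the rough depth estimate this is between 2.92 and 14.2 fragments per library. The groups overlapped, and a difference was not detectable at this depth.

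Actb (ENSMUSG00000029580, chromosome 5, 142903115 to 142906754, minus strand) had 42.1, 39.4 and 40.0 FPKM in PBS replicates 1, 2 and 3. It had 25.3, 50.6 and 49.3 FPKM in STZ replicates 1, 2 and 3. The PBS libraries, the third included, lay close together, while the STZ libraries lay on both sides of them, with STZ replicate 1 low. The log2 fold change was -0.03 (limma adjusted p = 0.959), with a 95% confidence interval from -0.77 to 0.71 that does not exclude a change in either direction.

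Actg1 (ENSMUSG00000062825, chromosome 11, 120345690 to 120348542, minus strand) had 73.2 and 79.6 FPKM in PBS replicates 1 and 2, against 48.6, 112.8 and 75.6 FPKM across STZ replicates 1 to 3. STZ replicate 1 was again the lowest library, and STZ replicate 2 the highest. STZ replicate 2 also stood apart in blood markers (mostly globins), which summed to 959 FPKM there and to between 283 and 361 FPKM in the other 4 fitted libraries. Endothelial markers summed to 180 FPKM in it and to between 135 and 167 FPKM in the others. The high sum came largely from Cldn5, a tight junction protein of endothelium. Cldn5 had 43.4 FPKM there and between 10.98 and 17.44 FPKM in the other fitted libraries. Pecam1, Egfl7 and Cdh5 were highest in STZ replicate 3, and Kdr and Tie1 in PBS replicate 1. Tek was highest in STZ replicate 2, at 11.66 FPKM against 11.52 FPKM in STZ replicate 3. Of the 5 blood and 7 endothelial markers 0 rose and 0 fell, where 5.82% of all tested genes were called. The part of these markers in the levels of Actb and Actg1 was not tested. Without STZ replicate 2 the log2 fold changes of Actb and Actg1 were -0.20 and -0.33. The log2 fold change was -0.03 (limma adjusted p = 0.959, 95% confidence interval -0.83 to 0.76). Without STZ replicate 1 the changes of Actb and Actg1 were 0.29 and 0.27, with limma adjusted p-values of 0.215 and 0.468. After rescaling to TPM they were 0.037 and 0.035.

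**Figure D1:**
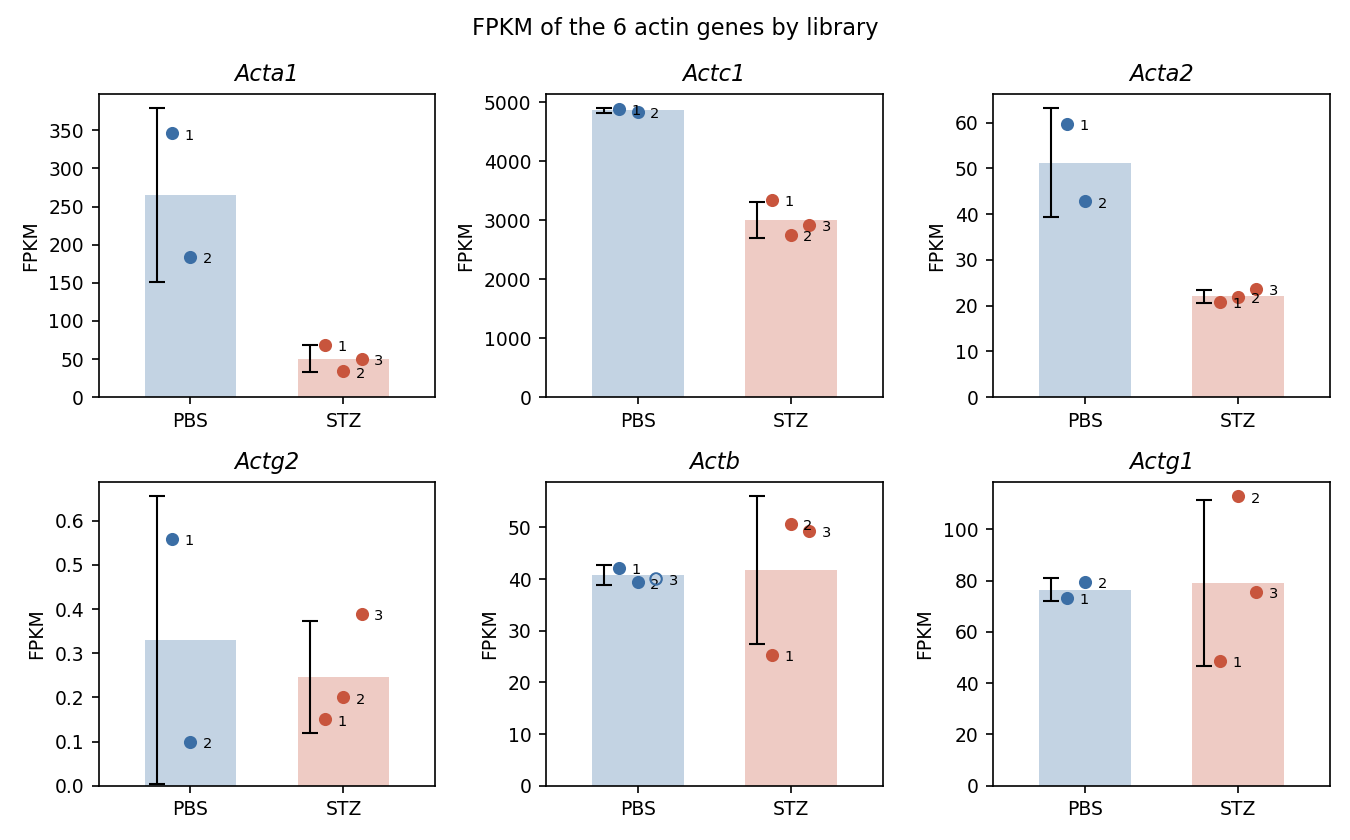
FPKM (vertical axes, linear, from 0) of each actin gene in PBS and STZ libraries. Points are libraries numbered by replicate, bars and error bars are the mean and SD of the fitted libraries, and the open circle is PBS replicate 3, listed for Actb alone and not in the mean. Acta1, Actc1 and Acta2 are lower in every STZ library than in either PBS library, while STZ values of Actb and Actg1 lie on both sides of the PBS values.

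The order of the actins by level differed between the groups. In PBS replicates 1 and 2, Actc1 was followed by Acta1, Actg1, Acta2, Actb and Actg2 in that order. In STZ replicate 1 Acta1 (68.1 FPKM) still lay above Actg1 (48.6 FPKM), and in STZ replicates 2 and 3 Actg1 lay above it. In STZ libraries Acta1, from 33.8 to 68.1 FPKM, and Actb, from 25.3 to 50.6 FPKM, overlapped, as did Acta1 and Actg1. Acta2 lay below Actb in every STZ library and above it in both PBS libraries.

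The 6 actins together made up 0.923% and 0.878% of the FPKM of PBS replicates 1 and 2, and 0.614%, 0.558% and 0.537% of that of STZ replicates 1, 2 and 3. Their summed FPKM averaged 5295 ± 164 (SD, n = 2) over the PBS libraries against 3197 ± 275 (SD, n = 3) over the STZ libraries. The 4 muscle actins accounted for that difference, with 5296 and 5060 FPKM in the PBS libraries, against 3427, 2803 and 2999.7 FPKM in the STZ libraries. The 2 cytoplasmic actins summed to 115 and 119 FPKM in PBS replicates 1 and 2 and to 73.9, 163 and 125 FPKM in the STZ libraries, so the groups overlapped.

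Within the actin FPKM, Actc1 held 90.4% and 93.3% in PBS replicates 1 and 2 and 95.3%, 92.6% and 93.6% in STZ replicates 1, 2 and 3. Its share thus overlapped between the groups although its level did not. Acta1 held 6.39% and 3.56% in the PBS libraries, against 1.95%, 1.14% and 1.6% in the STZ libraries, and Acta2 held 1.10% and 0.826% against 0.595%, 0.737% and 0.756%. Both shares were lower in every STZ library. Actb and Actg1 together held 2.13% and 2.30% in PBS, but 2.11%, 5.51% and 4.0% in STZ, with STZ replicate 1 at the PBS level. Actg2 held at most 0.0125%.

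The log2 fold change of Acta1 was larger in size than that of Actc1, and the ratio between them was lower in every STZ library. The FPKM of Acta1 was 0.0707 and 0.0382 times that of Actc1 in PBS replicates 1 and 2, and 0.0204, 0.0123 and 0.0171 times in STZ replicates 1, 2 and 3. The mean log2 ratio went from -4.27 ± 0.63 (SD, n = 2) to -5.94 ± 0.37 (SD, n = 3), and the groups did not overlap. The ratio of Actb to Actg1 lay between 0.449 and 0.652 in all 5 libraries, with log2 means of -0.91 and -0.90 in PBS and STZ. The log2 ratio of Acta2 to Actg2 overlapped between the groups, and it rests on the few fragments of Actg2.

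These 12 measures (6 shares, 3 sums and 3 ratios) were tested with a two-sided exact permutation test over libraries, which for 2 against 3 libraries cannot give a p below 0.1. The shares of Acta1 and Acta2, the sums over all 6 and over the 4 muscle actins, and the ratio of Acta1 to Actc1 reached that exact p of 0.1 (0.24 adjusted over the 12). The exact p was 0.4 for the shares of Actc1 and of Actb, 0.3 for that of Actg1, 0.8 for that of Actg2 and for the cytoplasmic sum, 0.5 for Acta2 to Actg2 and 1 for Actb to Actg1. No measure could have passed in this design, whatever its size.

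**Figure D2:**
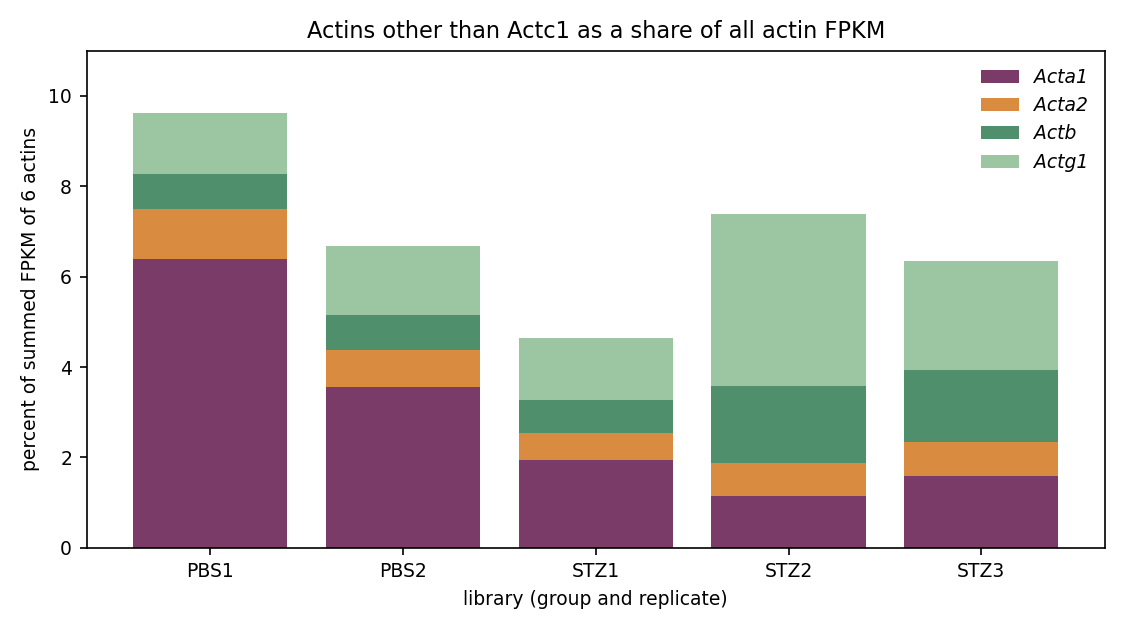
Share of Acta1, Acta2, Actb and Actg1 in the summed FPKM of the 6 actins (vertical axis, percent) in each fitted library. The rest of each library, between 90.4% and 95.3%, is Actc1, and Actg2 is too low to draw. The Acta1 block shrinks from 6.39% and 3.56% in the PBS libraries to between 1.14% and 1.95% in the STZ libraries.

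Stretches before the start of 4 of the actin genes were taken from RefSeq (GRCm38.p6) and searched for CArG boxes. A CArG box is CC, a core of 6 bases that are A or T, and GG. A looser form with 1 other base in the core was searched separately. Both forms are in capitals, and bases within annotated exons are left out.
Acta1, chr8:123894776-123895025, minus strand: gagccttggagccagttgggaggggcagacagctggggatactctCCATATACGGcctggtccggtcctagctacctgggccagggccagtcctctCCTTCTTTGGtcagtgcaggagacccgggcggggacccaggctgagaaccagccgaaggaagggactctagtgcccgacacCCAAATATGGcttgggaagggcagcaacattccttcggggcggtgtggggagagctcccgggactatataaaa
Actc1, chr2:114052888-114053125, minus strand: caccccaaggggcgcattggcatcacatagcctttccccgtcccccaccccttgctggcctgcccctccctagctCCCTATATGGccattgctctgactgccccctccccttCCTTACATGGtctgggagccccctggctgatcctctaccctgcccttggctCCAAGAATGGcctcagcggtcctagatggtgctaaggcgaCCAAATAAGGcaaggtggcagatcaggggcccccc
Acta2, chr19:34255438-34255467, minus strand, 30 bases around a match: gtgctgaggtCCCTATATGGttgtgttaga
Actg1, chr11:120348543-120348745, minus strand: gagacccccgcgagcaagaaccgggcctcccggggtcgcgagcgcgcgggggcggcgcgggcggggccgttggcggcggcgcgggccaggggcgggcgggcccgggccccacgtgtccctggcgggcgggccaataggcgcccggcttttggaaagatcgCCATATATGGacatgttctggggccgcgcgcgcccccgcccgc
In the 250 bases before the RefSeq start, Acta1 held 1 CArG box, at -73 to -64, and 2 of the looser form. Actc1 held 1, at -47 to -38, and 3 of the looser form. Actg1 held 1, at -90 to -81. Acta2 held 2 of the looser form, the shown one at -84 to -75. The starts are those of RefSeq, and the longest GENCODE models of Actc1 and Acta2 begin 673 and 217 bases further upstream. The same offset was 47 bases for Actg1 and -24 bases for Acta1, a GENCODE start downstream of the RefSeq start. The positions given thus depend on the start used.

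On both strands, 1.47% of 32851 RefSeq windows of the same length held a CArG box and 7.25% the looser form. Other motifs were commoner or absent. CATTCC, bound by TEAD factors, occurred once each in Acta1 and Acta2 and in 12.6% of all windows. TATAAA occurred in Acta1 and in 12.4% of windows. CANNTG, the E-box, occurred in Acta1, Acta2 and Actg1 and in 66.2% of windows. No motif overlapped another in these 4 genes, and a match is a description of letters and not of binding. The part of these motifs in the levels of the actins was not tested.

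Transcripts of SRF and its partners did not pass the test. Of 18 tested genes of SRF, its cofactors and partners 0 rose and 0 fell, and their median log2 fold change was -0.03. Over all tested genes 5.82% were called, so counts of 0 in short lists, here and below, are near that share. Srf itself had 31.3, 23.5 and 24.8 FPKM in PBS replicates 1 to 3, against 19.6, 24.7 and 14.7 FPKM across STZ replicates 1 to 3, with overlapping groups. Fhl2, a LIM protein that binds SRF, had 642, 558 and 610 FPKM in PBS and 445, 329 and 353 FPKM in STZ, a log2 fold change of -0.68 that missed the threshold (limma adjusted p = 0.0660). Among 22 other SRF targets Ckm, the muscle creatine kinase, fell (597 and 558 to 361, 373 and 386 FPKM, log2 fold change -0.63, limma adjusted p = 0.0301) and 0 rose, with a median of -0.11.

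Of 20 tested partners of actin in the thin filament and at its ends, Lmod3 fell and 0 rose, and the median was -0.11. Of all tested genes 2.17% fell and 3.64% rose. Lmod3, a leiomodin that nucleates and lengthens thin filaments, had 40.9 and 41.7 FPKM in PBS replicates 1 and 2, against 21.9, 15.4 and 22.7 FPKM across STZ replicates 1 to 3 (log2 fold change -1.03, limma adjusted p = 0.0364). The other partners of the sarcomere stayed on the side of no call. Of the 20, 13 had a negative and 7 a positive log2 fold change. Tnnt1 and Tpm4 came nearest to a call, with -0.73 and -0.66 (limma adjusted p = 0.0738 and 0.0751). Tpm1, the main tropomyosin, had 893 and 933 FPKM in PBS and 745, 779 and 864 FPKM in STZ (log2 fold change -0.20, limma adjusted p = 0.311), and troponin T (Tnnt2) had a log2 fold change of 0.36 (limma adjusted p = 0.218). The FPKM of Actc1 was 7.29 and 6.39 times that of Tnnt2 in PBS replicates 1 and 2. In STZ replicates 1, 2 and 3 it was 4.11, 3.24 and 2.66 times. Tnnt2 had the largest positive log2 fold change of the tested partners, so this ratio does not reflect Actc1 alone.

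Genes that bind monomers and turn filaments over were mostly not called, with a median of -0.07 over 21 tested. Destrin (Dstn), a depolymerising factor of the cofilin family, rose from 59.5, 54.4 and 56.1 FPKM in PBS replicates 1, 2 and 3 to 118, 132 and 87.3 FPKM in STZ replicates 1, 2 and 3 (log2 fold change 0.95, limma adjusted p = 0.045, fitted without PBS replicate 3). It was the single call among the 21, which is near the 5.82% called of all tested genes. Of 16 nucleation genes the formin Daam1 fell (12.1 and 11.1 to 4.79, 6.51 and 5.57 FPKM, limma adjusted p = 0.0261). Cortactin (Cttn), which stabilises branched filaments, rose (7.13 and 7.55 to 12.5, 13.1 and 11.6 FPKM, limma adjusted p = 0.0324). The median of that list was 0.14, and of all tested genes 2.17% fell and 3.64% rose.

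Of 18 genes of actin folding and modification, 8 other actin-related proteins and 19 partners of non-muscle actin, 0 rose and 0 fell. Over all tested genes 5.82% were called. The medians of the lists were -0.02, 0.02 and -0.01. The first of these lists holds the TRiC chaperonin, which folds actin, and Setd3, which methylates it. Setd3 had 13.8 and 15.0 FPKM in PBS replicates 1 and 2, against 14.8, 10.7 and 14.1 FPKM across STZ replicates 1 to 3.

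**Figure D3:**
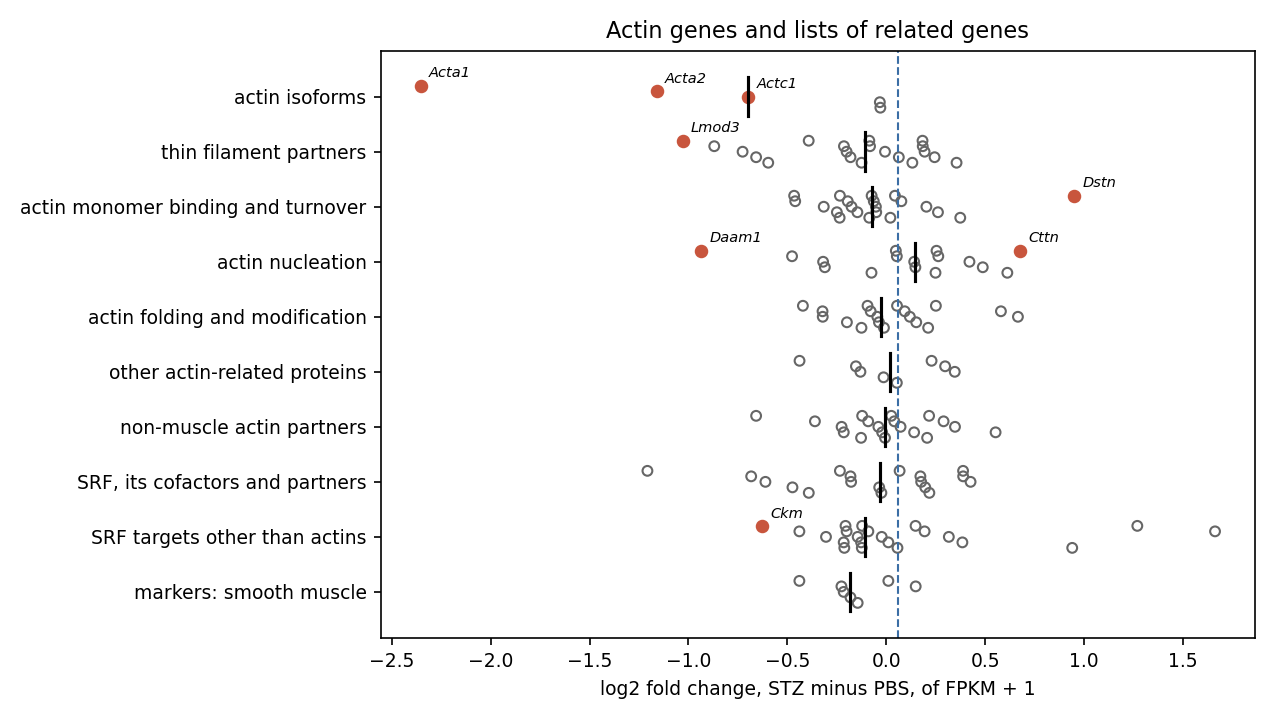
Log2 fold change (horizontal axis, STZ minus PBS, of FPKM + 1) of each tested gene in the actin list and in lists of related genes. Filled points passed the threshold, open points did not, black bars are list medians and the dashed line is the median of all tested genes (0.06). The called actins lie from -0.70 to -2.35, beyond most genes of the other lists.

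Acta1 and Acta2 also mark other muscle types, so markers of these were set beside them. Of 14 skeletal muscle markers 12 stayed under 1 FPKM in all 5 libraries. The adult skeletal myosins were absent or nearly so, with Myh4 at 0 in all 5 libraries, Myh1 at most 0.01 and Myh2 at most 0.02 FPKM. The 2 others fell, where 2.17% of all tested genes fell. Myl1, a fast skeletal light chain that is also made in atria, had 11.4 and 7.37 FPKM in PBS replicates 1 and 2, against 4.57, 2.44 and 2.19 FPKM across STZ replicates 1 to 3 (log2 fold change -1.37, limma adjusted p = 0.0491). Mybpc2, the fast myosin-binding protein C, had 4.2 and 4.52 against 1.51, 2.17 and 1.36 FPKM (log2 fold change -1.01, limma adjusted p = 0.0266). The whole list summed to between 12.9 and 18.1 FPKM in PBS and between 5.41 and 8.32 FPKM in STZ.

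Of 8 smooth muscle markers 7 were tested, 0 rose and 0 fell, and their median log2 fold change was -0.18. They summed to 54.2 and 53.0 FPKM in PBS replicates 1 and 2, against 42.2, 44.3 and 51.5 FPKM across STZ replicates 1 to 3. Tagln (transgelin) came nearest to a call, with a log2 fold change of -0.44 (limma adjusted p = 0.0918). Myh11, the smooth muscle myosin, had 4.70, 4.66 and 3.17 FPKM in PBS replicates 1 to 3, against 3.16, 3.29 and 5.41 FPKM across STZ replicates 1 to 3, with overlapping groups. The FPKM of Acta2 was 12.7 and 9.18 times that of Myh11 in PBS replicates 1 and 2 and 6.59, 6.64 and 4.36 times in the STZ libraries. Of 6 pericyte markers 0 rose and 0 fell.

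Among 7 markers of activated fibroblasts, which can contain Acta2, Meox1 and Postn fell and 0 of the 5 tested rose. Over all tested genes 2.17% fell and 3.64% rose, here and for the general list below. The list summed to between 14.4 and 17.6 FPKM in PBS and between 5.80 and 8.29 FPKM in STZ, while 2 of its members stayed under 1 FPKM throughout. Among 9 general fibroblast markers the collagens Col3a1, Col1a1 and Col1a2 fell, with log2 fold changes of -2.68, -1.67 and -0.92 (limma adjusted p = 0.00175, 0.00806 and 0.0259), and 0 rose. The others did not pass. Dcn, a matrix proteoglycan, had 56.7, 53.2 and 50.1 FPKM in PBS replicates 1 to 3, against 66.5, 74.3 and 74.2 FPKM across STZ replicates 1 to 3 (log2 fold change 0.38, limma adjusted p = 0.115). Pdgfra and Tcf21 had log2 fold changes of 0.37 and 0.25 (limma adjusted p = 0.15 and 0.306). Dpt and Lum went the other way, with -0.61 and -0.26 (limma adjusted p = 0.0538 and 0.525), and Dpt was lower in every STZ library. Gsn had 0.02 (limma adjusted p = 0.928). The general list summed to 496 and 458 FPKM in PBS replicates 1 and 2, against 487, 434 and 436 FPKM across STZ replicates 1 to 3. These sums overlapped, but most of each was Gsn. Its level was 325 and 311 FPKM in the PBS libraries and 359, 307 and 305 FPKM in the STZ libraries. The overlap of the sums thus says little of the other members. For 7 of the 9 the PBS and STZ values did not overlap, as for 47.4% of all tested genes. The part of fibroblasts in the fall of Acta2 was not tested.

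Atrial markers differed between libraries of the same group. Myl7, the atrial light chain, had 262, 37.9 and 0.21 FPKM in PBS replicates 1 to 3, against 357, 73.7 and 0.28 FPKM across STZ replicates 1 to 3, and 0 of the 5 atrial markers tested passed. Sln, Myl4 and Dkk3 were likewise highest in replicate 1 of each group and lowest in STZ replicate 3. Nppa was not low there, with 996 and 251 FPKM in PBS replicates 1 and 2, against 2864, 876 and 1591 FPKM across STZ replicates 1 to 3. Bmp10, not tested, had 0.07 and 0.94 FPKM in PBS and 2.49, 0.22 and 0 FPKM in STZ. Acta1, as Myl7, was highest in replicate 1 of each group. Among the STZ libraries Acta1 was lowest in replicate 2, at 33.8 FPKM, and Myl7 was lowest in replicate 3. The part of atrial tissue in the levels of Acta1 was not tested.

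**Figure D4:**
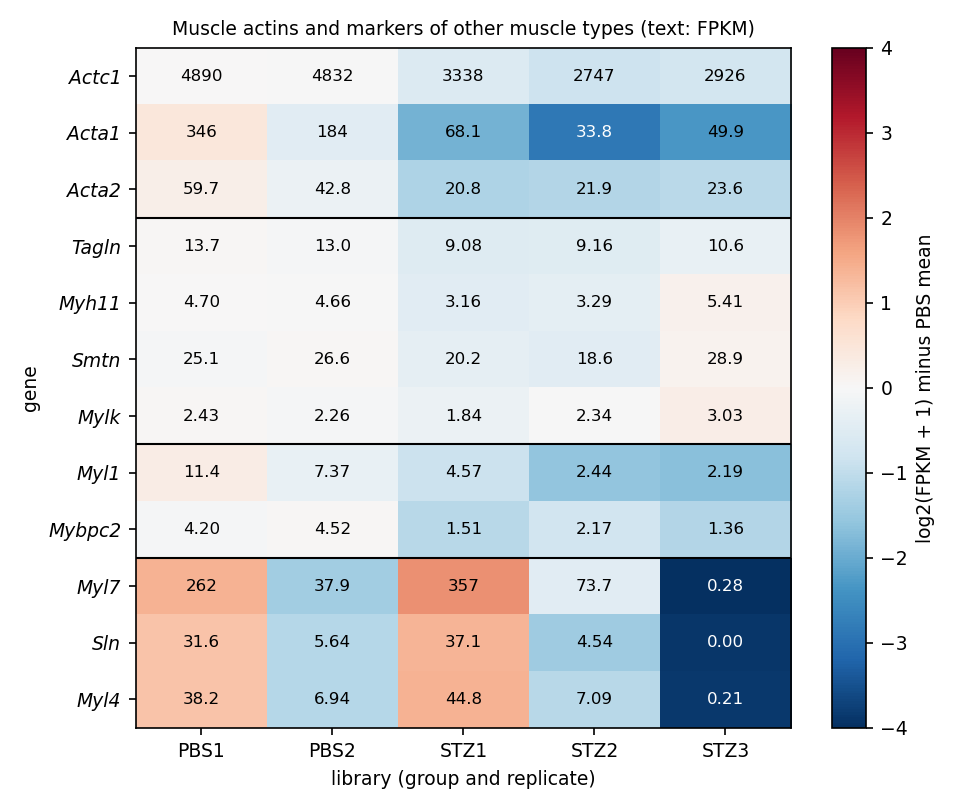
Heat map of Actc1, Acta1 and Acta2, then smooth muscle, skeletal muscle and atrial markers (rows, in that order, a selection of each list) in the fitted libraries (columns). Colour is log2(FPKM + 1) minus the PBS mean of the gene and printed values are FPKM. These actins are lower in all 3 STZ libraries, whereas Myl7, Sln and Myl4 are high in replicate 1 of both groups and near 0 in STZ replicate 3. The atrial marker Nppa, not drawn, had 1591 FPKM in STZ replicate 3.

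Among the called genes of the fetal gene programme, the actins and the slow myosin went opposite ways. Myh7 rose from 81.4 and 82.9 FPKM in PBS replicates 1 and 2 to 830, 1290 and 1144 FPKM in STZ replicates 1, 2 and 3 while Acta1 fell. Acta1 had 4.25 and 2.22 times the FPKM of Myh7 in the PBS libraries, against 0.0821, 0.0262 and 0.0436 times in the STZ libraries. Of the 8 tested genes of that list 1 rose and 2 fell, the latter being Acta1 and Acta2 themselves. Over all tested genes 3.64% rose and 2.17% fell. The others, Nppa, Nppb, Ankrd1, Myl4 and Myl7, were not called, and their groups overlapped. Their log2 fold changes were 1.66, -0.21, 0.15, -1.20 and -1.64 in that order.

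The genes with the most similar profile were found as those with the smallest root mean square distance between log2(FPKM + 1) values over the 5 libraries, each centred on its own mean. The search covered 2503 protein-coding genes with a mean of at least 10 FPKM. The 5 points share their libraries and the group difference, and nothing is said of shared function. For Actc1 they were Tecr (distance 0.0463), an enzyme of fatty acid elongation, Ogn (0.0591), a matrix proteoglycan, and Cmss1 (0.0671). For Acta2 they were Lpin1 (0.111), a phosphatidate phosphatase, Mtr (0.147), the methionine synthase, and St3gal5 (0.159), which makes the ganglioside GM3. Acta1 had no close match. Its nearest genes were Lrtm1 (0.499), Gm34302 (0.504) and Ankrd23 (0.52), a muscle ankyrin repeat protein. Ankrd23 had 202 and 184 FPKM in PBS replicates 1 and 2, against 52.9, 59.2 and 54.0 FPKM across STZ replicates 1 to 3.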

How the data were processed

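FPKM of the actin genes were compared between PBS and STZ myocardium. The deposited unit is FPKM, per the file headers, and values carry 2 decimals. Per the labels' protocols, poly(A) RNA was fragmented and the second cDNA strand marked with dUTP. The tools were cutadapt 1.9, HISAT2 2.0.4 and StringTie 1.3.4d with build GRCm38, per the submitters' processing notes. The sources used here do not give the strand setting, annotation release or filters, so antisense, overlapping and near-identical genes may share reads.

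Identifiers were matched to GENCODE M21 (GRCm38), and 55141 of 55401 had a symbol. Where a symbol had several identifiers, the one with the highest mean was used. A library listing under 50% of the genes was left out of the fit (PBS replicate 3). Genes that reached 1 FPKM in 2 or more fitted libraries were tested with limma 3.58.1 (R 4.3.3, lmFit, eBayes with trend) on log2(FPKM + 1), two-sided, with Benjamini-Hochberg adjustment. This scale understates the change of low genes. The model had no covariate because no batch is labelled. On simulated data over the 11556 genes, 100 genes were changed by 1 and 100 by 2 on the log2 scale. These were drawn from genes with a mean log2(FPKM + 1) above 2. Of them 59% and 91% were recovered, and 5.06% of calls were false. The simulated noise was independent between genes and libraries, so these figures do not cover differences that many genes of a library share.

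Shares, sums and ratios were tested over libraries with an exact permutation test. Coding sequences were aligned with Biopython 1.88 (match 1, mismatch -1, gap -5 and -0.5), and stretches of 50 bases were searched in all transcripts on both strands. Genes named beside the actins are called list members (at most 4 a list), the 3 nearest profiles, neighbours and genes sharing stretches. Others are values chosen after they were seen. The members and the gene lists were chosen with earlier results of these data known. The alternatives are given in the closing section. Depth was estimated from the steps of FPKM times length, and no counting interval is given.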

Additional observations from a re-analysis of the deposited data

How the results depend on the processing

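Of 17 alternatives, Acta1, Acta2 and Actc1 could be recomputed in 16 and stayed past the threshold in 12, 10 and 9, with a negative change in each. With no filter on low values none of the 3 passed (log2 fold changes -2.35, -1.16 and -0.70). After quantile normalization Actc1 was -0.22. Leaving out 1 replicate at a time gave -2.80 to -1.90 for Acta1, -1.40 to -0.92 for Acta2 and -0.78 to -0.64 for Actc1. It gave -0.20 to 0.29 for Actb, -0.33 to 0.27 for Actg1, -0.29 to 0.29 for the log2 cytoplasmic sum, -0.14 to 0.13 for the log2 ratio of Actb to Actg1 and -0.00251 to 0.00591 percentage points for the share of Actg2. In TPM the log2 fold changes of Actb, Actg1 and their sum turned to 0.037, 0.035 and 0.038. As shares of the whole library instead of the actins, the differences in percentage points were -0.0362 for Acta1, -0.00478 for Acta2 and 0.00055 for Actb, and those of Actc1 and Actg2 changed sign, from 2.03 to -0.291 and from 0.0017 to -1.26e-05. The 2 kinds of share divide by different sums, and the 6 actins together held 0.901% of the PBS and 0.570% of the STZ library totals on average. The number of genes past the threshold, 672 as reported, was 81 with no filter, 1169 with PBS replicate 3 where listed, and 24 to 398 without 1 replicate. Of the calls, 62.7% were higher in STZ, against 48.5% after median centring, 50.2% after quantile normalization and 73.8% in TPM, where the median log2 fold change of all genes was 0.126 against 0.06 as reported.

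With the replicate block, which uses replicates 1 and 2 alone, Actc1 was -0.68 and Acta2 -1.21, both with a limma adjusted p of 0.0688, the log2 ratio of Actb to Actg1 was -0.14, the share of Actg2 differed by -0.000626 percentage points and 64 genes passed. Since no batch is labelled, the numbers were not taken to pair the samples. Deviations of libraries with the same number correlated at 0.176, -0.0502 and 0.15 over 4811 genes. For libraries with unlike numbers the correlations ran from -0.233 to 0.0934. In the fitted libraries the difference of replicates 1 and 2 correlated at 0.0307 between the groups. These values do not settle whether the numbers pair the samples. Counts per gene are not in hand, so no counting interval is given, and the 5 libraries limit the precision.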

Other observations

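Genes next to the actins were looked up in GENCODE M21. C130080G10Rik (ENSMUSG00000092397, chromosome 2, 114054335 to 114064868), annotated as antisense, lies 787 bases upstream of Actc1 on the opposite strand. It had 36.2 and 32.6 FPKM in PBS replicates 1 and 2, against 13.8, 8.65 and 7.91 FPKM across STZ replicates 1 to 3. Its change of -1.71 ± 0.23 on the log2 scale (SE, limma adjusted p = 0.0183) was larger in size than the -0.70 of Actc1. The noncoding A530058N18Rik (ENSMUSG00000092201), which overlaps Actc1 on the opposite strand, fell as well (1.86 and 1.9 to 0.87, 0.53 and 0.64 FPKM, log2 fold change -0.78, limma adjusted p = 0.0387). The strand setting is not given, so reads may be shared where exons of the 2 genes overlap. Only the spans of the genes were compared, and the overlap of exons was not looked up.

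The neighbours of the other actins were not called or not tested. Fscn1, an actin-bundling protein and the nearest gene upstream of Actb at 53589 bases, had 6.80, 8.82 and 8.75 FPKM in PBS replicates 1 to 3, against 1.99, 7.11 and 5.69 FPKM across STZ replicates 1 to 3. It was lowest in STZ replicate 1, as Actb was. 0610009L18Rik, a noncoding gene 136 bases upstream of Actg1, had 7.60 and 6.87 FPKM in PBS and 3.74, 3.20 and 6.41 FPKM in STZ (limma adjusted p = 0.168). Gm20388, which overlaps Acta1 on the opposite strand, is listed at 0 in all 5 libraries. Stambpl1, 757 bases from the end of Acta2 on the opposite strand, had between 0.23 and 0.39 FPKM in all 6 libraries.

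Lrrc58, which shares 9.57% of the 50-base stretches of Actb, rose (4.84 and 4.47 to 8.83, 7.51 and 7.10 FPKM, log2 fold change 0.64, limma adjusted p = 0.0491). The pseudogene Gm12715, which shares most of the stretches found for Actg1, had 4.05 and 1.6 FPKM in PBS replicates 1 and 2, against 1.49, 2.94 and 7.82 FPKM across STZ replicates 1 to 3.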
